A study of Mus musculus with 25 samples.

Results

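Methylation in 3 libraries of hematopoietic stem cells (HSCs) recovered after transplantation of 10 young HSCs was set against 2 libraries of fetal HSCs, 5 of the 25 libraries of the series. The libraries were taken by their labels, and CpGs on the 19 autosomes entered where each of the 5 libraries had 5 or more reads. The transplanted libraries are labelled with the strain C57Bl/6, bone marrow and 10 young cells. The fetal libraries are from C57Bl/6 fetal liver of e14.5 embryos. Levels from 3 sets of C57Bl/6 bone marrow HSCs without transplantation are given beside them: 2 young libraries (3.5 months), 2 old libraries (25 months) and 3 libraries of a drug series given 0 doses of 5-fluorouracil (young at 3.5 months, plus 6 months). The 0-dose libraries are controls of that drug series. The labels used here do not give the recipients, the time after transplantation, the sex, or whether replicates came from separate animals. Transplantation, age and tissue of origin change together between the transplanted and the fetal libraries and cannot be told apart. The question was whether cells that divided many times in a recipient return to the fetal level where fetal and young HSCs differ.

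Methylation of cytosines in CpG pairs is copied to the new strand at each division by Dnmt1 with Uhrf1, is laid down anew by Dnmt3a and Dnmt3b, and is removed through oxidation by the Tet enzymes. CpG-rich promoters are mostly kept free of it, and CpG-poor sequence is mostly methylated. Fetal liver HSCs cycle actively and expand, and adult bone marrow HSCs are mostly quiescent until a transplant forces them to divide and refill a recipient.

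The transplanted libraries held 47998340, 44427841 and 48054848 reads and the fetal libraries 63394281 and 33002783, at a median of 23, 21 and 22 reads per CpG in the transplanted and 30 and 16 in the fetal libraries. Over 1078628 shared CpGs, levels correlated at 0.933 to 0.954 between transplanted libraries and at 0.980 between both fetal libraries. No pair of libraries held identical counts. Reads were summed in tiles of 1000 bp with at least 3 such CpGs, at a median of 150 to 160 reads per tile in the transplanted and 128 and 245 in the fetal libraries. A library is a pool of cells, so a partial change in every cell and a full change in some cells cannot be told apart.

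Sequences of 4 promoters are shown because they carry the largest differences at gene starts, or the absence of one beside a large difference. They are RefSeq sequences (GRCm38.p6), 250 bases before to 50 bases after the start, and capitals mark CpGs measured with 5 or more reads in all 5 libraries. Their places were found on the mm9 coordinates of the files by the spacing of the CpGs. Runx1 (chr16:92697525-92697824, minus strand) encodes a transcription factor that blood stem cells need to form. The promoter window placed for it was free of methylation in both groups, with the difference lying downstream of the start in that window. Any other start of Runx1 was not read. Alpk3 (chr7:88202236-88202535, plus strand), a kinase of heart muscle, and Nrsn2 (chr2:152202292-152202591, minus strand), a neuronal vesicle protein, had the largest promoter gains. Vwa7 (chr17:35153274-35153573, plus strand), a protein with a von Willebrand factor A domain, had the largest promoter loss.
Runx1: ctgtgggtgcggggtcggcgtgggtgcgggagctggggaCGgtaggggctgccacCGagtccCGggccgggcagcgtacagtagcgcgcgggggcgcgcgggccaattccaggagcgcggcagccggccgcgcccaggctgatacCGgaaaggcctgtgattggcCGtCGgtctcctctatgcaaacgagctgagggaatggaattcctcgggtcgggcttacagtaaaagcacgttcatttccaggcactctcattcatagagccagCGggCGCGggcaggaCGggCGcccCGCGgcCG
Alpk3: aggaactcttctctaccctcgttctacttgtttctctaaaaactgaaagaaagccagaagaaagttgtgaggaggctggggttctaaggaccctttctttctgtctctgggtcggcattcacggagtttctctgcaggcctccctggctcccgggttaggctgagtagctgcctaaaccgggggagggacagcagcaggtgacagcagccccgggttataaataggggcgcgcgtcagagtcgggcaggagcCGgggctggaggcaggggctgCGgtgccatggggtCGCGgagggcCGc
Nrsn2: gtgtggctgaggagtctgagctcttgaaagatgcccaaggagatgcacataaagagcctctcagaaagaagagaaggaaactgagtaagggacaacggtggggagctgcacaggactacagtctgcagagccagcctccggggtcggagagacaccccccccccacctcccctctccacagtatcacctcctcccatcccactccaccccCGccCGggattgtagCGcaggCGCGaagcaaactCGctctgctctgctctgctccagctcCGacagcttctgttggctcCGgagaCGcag
Vwa7: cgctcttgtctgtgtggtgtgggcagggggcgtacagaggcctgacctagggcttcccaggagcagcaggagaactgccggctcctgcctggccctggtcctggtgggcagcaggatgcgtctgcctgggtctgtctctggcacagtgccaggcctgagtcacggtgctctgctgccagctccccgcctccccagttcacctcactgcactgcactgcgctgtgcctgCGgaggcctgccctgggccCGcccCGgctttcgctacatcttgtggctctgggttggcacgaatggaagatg

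Away from promoters, transplanted HSCs had less methylation than fetal HSCs. Mean levels over tiles were 55.2%, 56.9% and 55.0% in the transplanted libraries, against 62.5% and 62.7% in the fetal libraries. All 3 transplanted libraries stood below both fetal ones. Of 102944 tiles tested, 10347 changed (10.1%): 1154 were higher in transplanted cells (1.12%) and 9193 were lower (8.93%). The call required both a difference of 10 percentage points or more and an adjusted p under 0.05 in a quasi-binomial fit moderated with limma (Benjamini-Hochberg). The median gain was 26.6 points and the median loss -24.3 points, and the median difference over all tiles was -6.02 points. Of all tiles, 76.7% were lower in the transplanted mean than in the fetal mean. The libraries did not overlap between groups at 57.7% of all tiles. The median gap between replicates was 3.42 to 4.04 points for pairs of transplanted libraries and 2.28 points for the fetal pair. The direction held in every fit that made calls, but the count moved with the libraries left in: it was 610 and 773 without fetal replicates 1 and 2, and 16250, 6584 and 11409 without transplanted replicates 1, 2 and 3. It was 0 where the moderation took its prior from all tiles (23.1% of tiles had an unadjusted p under 0.05 there), and with a library offset removed losses made up 98.3% of 45343 changed tiles, against 88.8% as fitted.

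The losses lay in CpG-poor sequence, and CpG-rich tiles were seldom called, nearly all of the calls being gains. Among 78676 tiles with fewer than 10 CpGs, 8953 lost and 848 gained. Among 5970 tiles with 30 or more CpGs, 1 lost and 71 gained. Mean levels over the CpG-poor tiles were 64.5% in transplanted and 73.2% in fetal libraries, and over the CpG-rich tiles 7.21% in transplanted and 6.88% in fetal libraries. Tiles were also split by their level in the young libraries, which were outside this fit. Tiles at 80% or more in young lost in 9.43% and gained in 0.238%. Tiles at 20 to 80% lost in 17.4% and gained in 3.93%, and tiles under 20% lost in 2.65% and gained in 1.17%. Of the 108 tiles with 30 or more CpGs at 20 to 80% in young, 25 gained and 0 lost, while the median difference over all 108 was -5.28 points. Distance from a gene start gave the same split. Within 1 kb of a placed promoter 76 tiles gained and 57 lost of 10690, while beyond 20 kb 698 gained and 7376 lost of 73069.

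**Figure D1:**
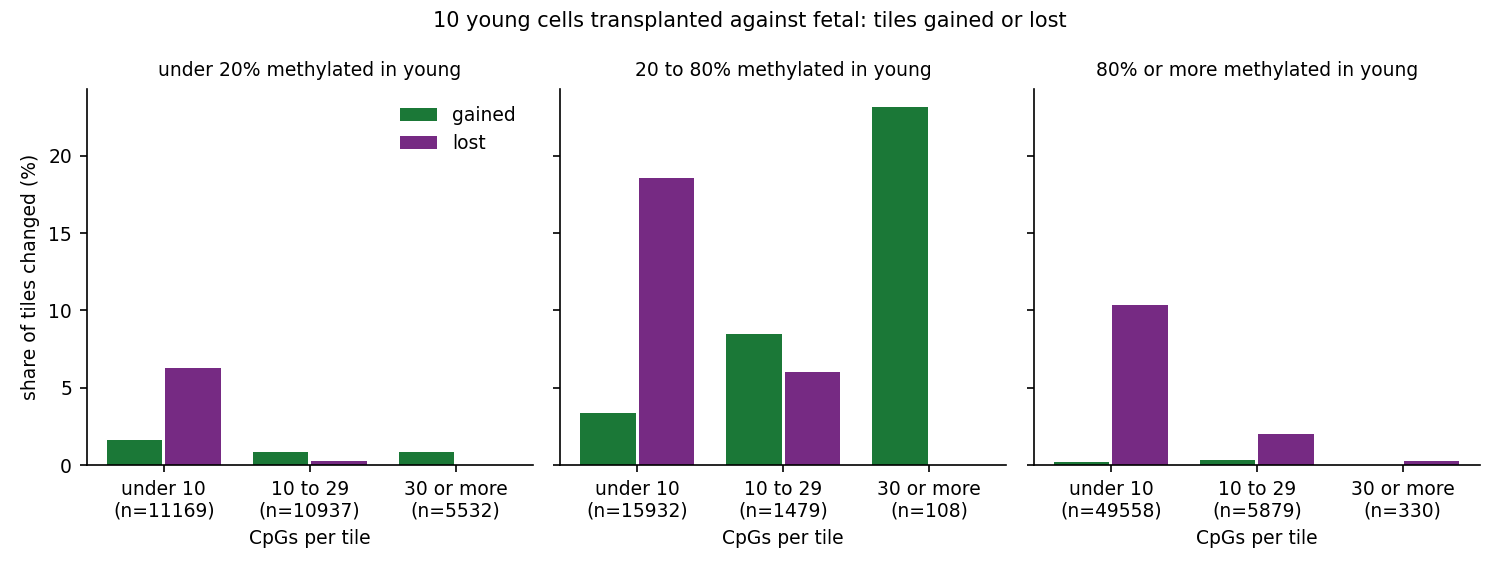
Share of tiles gained or lost in 10 young cells transplanted against fetal (y axis, % of tiles; bars start at 0), by CpGs per tile (x axis, with the number of tiles) and by the level in young libraries (panels). Losses lead in tiles with fewer than 10 CpGs at every level, and gains lead in the 108 tiles with 30 or more CpGs at 20 to 80%, where 23.1% gained.

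The tiles with the largest gains were nearly empty of methylation in fetal cells alone, and transplanted cells stood with the other adult cells or above them. A pair of neighbouring tiles lies inside Runx1. At chr16:92696001-92697000, 1.1 kb downstream of the placed start, the level was 80%, 81.7% and 80.9% in transplanted libraries and 1.48% and 0.781% in fetal libraries. At chr16:92695001-92696000 it was 90.0%, 73.6% and 76.9% in transplanted and 2.04% and 1.63% in fetal libraries. The 7 untransplanted adult libraries lay at 76.0% to 93.8% in the first Runx1 tile and at 60.0% to 79.8% in the second. The largest gain was at chr17:26576001-26577000, a tile of 22 CpGs 24.7 kb from the start of Neurl1b, an E3 ubiquitin ligase of Notch ligands. It had 87.6%, 92.8% and 83.2% in transplanted and 5.50% and 6.23% in fetal libraries, a difference of 82.0 points. Young libraries stood between the groups at this tile (58.6% and 59.7%), and old libraries at 91.1% and 91.3%. The other gains were at chr19:5751001-5752000, 25.2 kb upstream of Ehbp1l1, a protein of membrane tubules (mean 86.0% ± 1.47, n = 3, in transplanted and 10.8% ± 2.58, n = 2, in fetal; SD), and at chr8:87309001-87310000 (81.7% ± 11.4 in transplanted and 6.63% ± 1.19 in fetal). In these 5 tiles adjusted p lay between 2.88e-05 and 6.38e-05 in the quasi-binomial fit.

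The largest losses were at tiles that were nearly fully methylated in fetal cells and nearly empty in transplanted cells. At chr7:56123001-56124000, 13.5 kb from the start of E2f8, a repressor of the cell cycle's E2F family, the level was 0%, 6.98% and 3.20% in transplanted and 92.4% and 96.7% in fetal libraries. The adult libraries did not share one level here: both young libraries had 8.33% and 51.4%, and both old libraries 92.9% and 94.9%. HSCs from 10 old cells transplanted had 8.64% and 9.15% at this tile. At chr15:85504001-85505000 the level was 0%, 2.00% and 5.26% in transplanted and 92.3% and 94.8% in fetal libraries, and it was 0% in both libraries of 10 old cells transplanted. At chr4:86358001-86359000 it was 8.63%, 6.77% and 9.09% in transplanted and 94.1% and 89.5% in fetal libraries, with the young libraries at 68.7% and 66.5%. Transplanted cells therefore lay below every young library at these last tiles. The other losses were at chr19:47962001-47963000, 22.2 kb from Gsto2, a glutathione transferase (3.04% ± 2.26 in transplanted and 86.4% ± 5.42 in fetal), and at chr19:37870001-37871000 (11.1% ± 5.68 in transplanted and 93.8% ± 5.30 in fetal). These 5 tiles had 3 or 4 CpGs each and at least 50 reads per library, and each had an adjusted p of 2.88e-05 in the quasi-binomial fit.

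**Figure D2:**
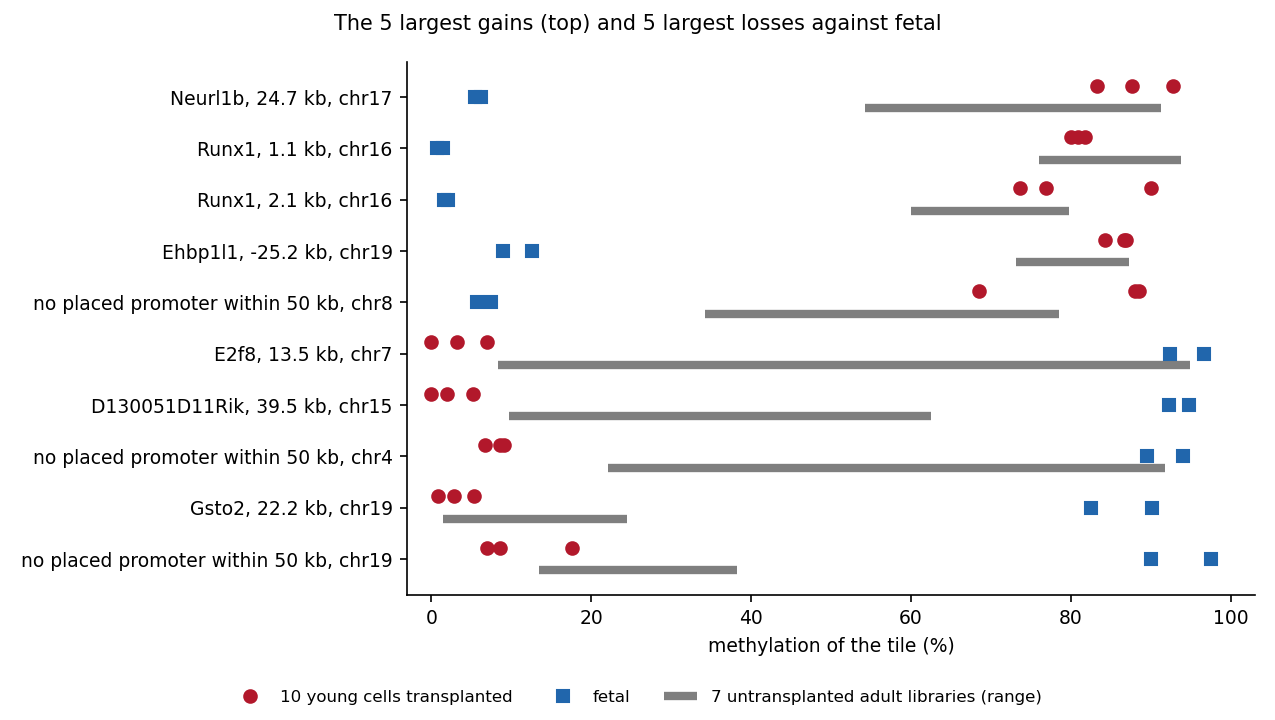
Methylation (x axis, %) at the 5 largest gains and 5 largest losses, 1 row per tile named by its nearest placed promoter within 50 kb; circles are the 3 transplanted libraries, squares the 2 fetal libraries and bars the range of 7 untransplanted adult libraries. At the gains the fetal squares lie below every adult library, and at the first 3 losses the circles lie below every adult library.

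To ask whether transplanted cells move to the fetal level, tiles were chosen with fetal replicate 1 and young replicate 1 alone, and levels were read in the other libraries. Where young replicate 1 was 20 points or more above fetal replicate 1 (954 of 77211 tiles measured in 12 libraries), transplanted cells were lower than untransplanted adult cells but far above fetal ones. Mean levels were 64.4%, 63.9% and 61.7% in the transplanted libraries, against 68.1% to 75.3% in 6 adult libraries that had no part in the choice (young replicate 2, both old and the 3 0-dose libraries) and 45.6% in fetal replicate 2. The transplanted libraries lay below all 6. The difference from the adult mean was -7.47 points (two-sided exact permutation test over 84 splits, p = 0.0119, the smallest this design can give; adjusted over both tile sets 0.0119). On a scale with young replicate 2 at the start and fetal replicate 2 at the end, the transplanted mean lay 26.7% of the way, and 15.2% of the way in the 303 tiles chosen at 30 points. Without transplanted replicate 3 the difference was -6.68 points (exact permutation p = 0.0714).

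Where young replicate 1 was 20 points or more below fetal replicate 1 (2300 tiles), transplanted cells were lower than untransplanted adult cells, and so further from fetal cells. Mean levels were 44.6%, 45.6% and 40.6% in the transplanted libraries, against 47.6% in young replicate 2, 57.4% and 60.1% in both old libraries, 58.9% to 60.6% in the 0-dose libraries and 69.4% in fetal replicate 2. All 3 transplanted libraries lay below all 6 adult libraries, by -13.7 points in the means (two-sided exact permutation test, p = 0.0119; adjusted over both tile sets 0.0119). In a stricter set of tiles, where all 7 adult libraries differ from fetal, the difference was -2.12 points and did not pass (two-sided exact permutation test, p = 0.133). The adult libraries also chose those stricter tiles, which ties their levels to the choice, so that p-value cannot decide. On the scale from young to fetal the transplanted mean lay at -18.3%, beyond the young end, and at 1.35%, level with young, where replicate 2 chose the tiles. Both young libraries stood apart in this tile set, and old and 0-dose libraries lay nearer to fetal replicate 2 than young replicate 2 did. Its choice rests on young replicate 1, which itself had 39.5%. Libraries of other transplants, which had no part in the choice, gave 44.6% and 49.0% after 10 old cells and 39.9% to 52.8% after 500 old cells. Single libraries gave 45.0% after 50 young cells and 37.9% after 500 young cells. In the set higher in young the old-cell transplants gave 63.4% and 66.5% after 10 cells and 66.1% to 68.8% after 500 cells. There the single libraries gave 69.6% after 50 young cells, within the range of the 6 adult libraries, and 65.8% after 500 young cells.

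Transplanted cells were also lower where fetal and young cells did not differ. At 54226 tiles within 5 points between fetal replicate 1 and young replicate 1, means were 46.9%, 48.3% and 47.1% in transplanted libraries, against 51.1% to 53.8% in the 6 adult libraries and 52.1% in fetal replicate 2. At the 27938 of these tiles at 80% or more in young, the median difference of transplanted from young replicate 2 was -8.12 points, and transplanted cells were lower at 95.4% of them. At the 3605 tiles at 20 to 80% it was -7.80 points. In the set higher in young the same median was -11.3 points at 341 tiles at 80% or more and -3.07 points at 613 tiles at 20 to 80%. At intermediate tiles the median shift toward fetal was therefore smaller than the median shift where fetal and young were alike. With tiles chosen by replicate 2 those medians were -0.319 and -4.97 points. The part of this general shift in the movement toward fetal was not tested.

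**Figure D3:**
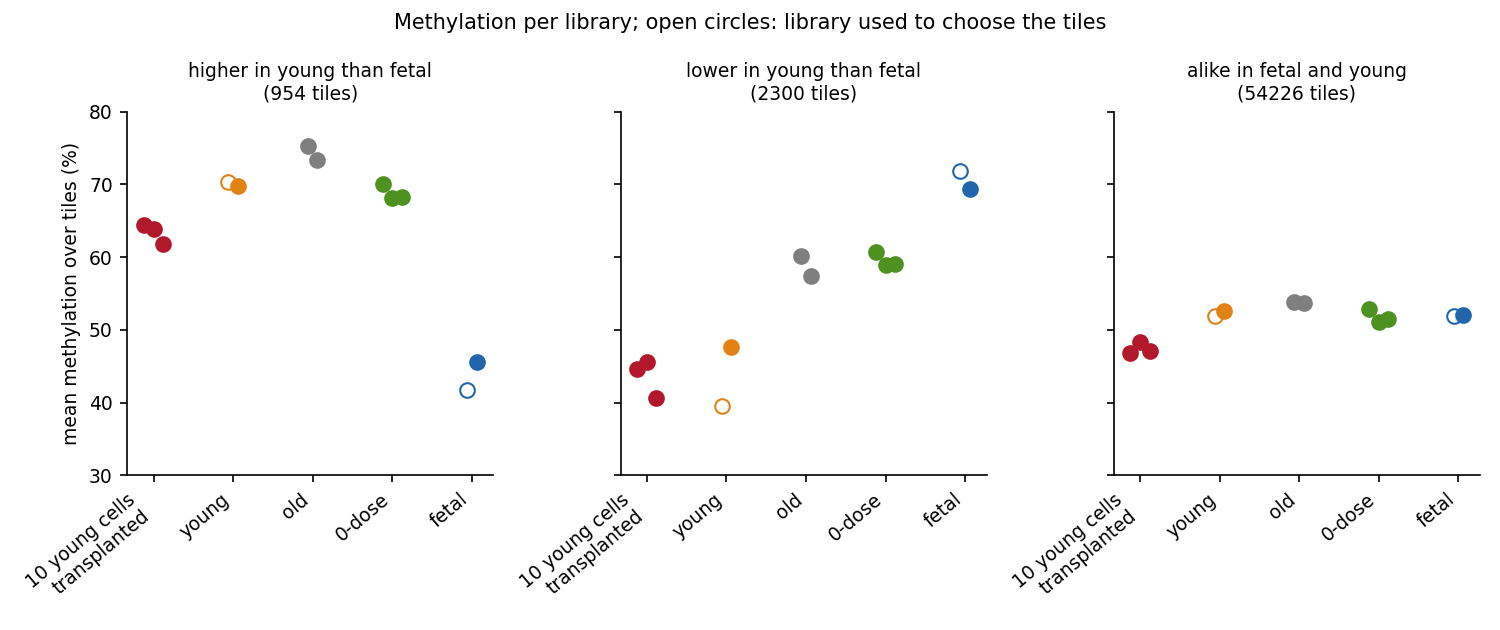
Mean methylation per library (y axis, %) over tiles higher in young than fetal, lower in young than fetal, and alike in both (panels); each circle is 1 library and open circles are libraries that chose the tiles. The transplanted libraries lie below the 6 adult libraries that chose no tile in all 3 panels, and below fetal replicate 2 in the panels of tiles lower in young and alike only.

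Few single tiles reached the fetal level. Of 579 tiles higher in young where the other replicates also differed by 20 points, the transplanted mean lay within 10 points of fetal replicate 2, and not of young replicate 2, at 96 (16.6%). The same count gave 2.76% for old and 9.15% for 0-dose libraries. At 265 of the 579 tiles (45.8%) the transplanted mean lay within 10 points of young, and at 140 (24.2%) in between. Of 1137 tiles lower in young, the transplanted mean was at the fetal level at 69 (6.07%), against 33.7% for old and 36.0% for 0-dose libraries. It was at the young level at 594 (52.2%) and more than 10 points below young at 238 (20.9%). Counts of tiles have no test here, since tiles of a library are not replicates.

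A stricter choice used tiles where all 7 untransplanted adult libraries differed from both fetal libraries by 20 points or more, with no transplanted library in the choice. At 273 tiles higher in the adult libraries, means were 69.3%, 68.2% and 66.3% in the transplanted libraries, 74.6% over the adult and 33.4% over the fetal libraries. Transplanted cells were within 10 points of fetal at 15 tiles (5.49%) and closer to fetal than to adult at 38 (13.9%). At 252 tiles lower in the adult libraries, means were 18.7%, 19% and 16.5% in the transplanted libraries, 20.2% over the adult and 68.7% over the fetal libraries. Transplanted cells were within 10 points of fetal at 0 of these tiles and closer to fetal than to adult at 5 (1.98%). Every transplanted library lay outside the adult range on the side toward fetal at 63 of the 273 tiles and on the side away at 7. Of the 252 tiles, 21 were outside it toward fetal and 33 away. The share of all tiles outside the adult range is not given. Over tiles alike in fetal and young the transplanted means also lay below those of the 6 adult libraries. The counts therefore cannot show a movement particular to tiles where adult and fetal cells differ. The transplanted mean differed from the adult mean by -6.67 points in the first set and by -2.12 points in the second, given as a description because the adult libraries chose these tiles.

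All 5 tiles of the second set that came closer to fetal had more methylation than every adult library in all 3 transplanted libraries. The tile at chr11:90209001-90210000 lies 42.7 kb downstream of the start of Hlf, a transcription factor of HSCs. It had 55.2%, 62.1% and 50.0% in transplanted and 72.4% and 68.3% in fetal libraries, against 18.0% to 37.5% in the adult libraries. The tile at chr8:125200001-125201000 lies 1.6 kb into Cbfa2t3, a corepressor that acts with blood transcription factors. It had 51%, 55.7% and 43.1% in transplanted and 61.0% and 69.7% in fetal libraries, against 29.2% to 39.2% in the adult libraries. Levels after 10 old cells were 50.9% and 60.5% at the Hlf tile, and 39.1% and 45.0% at the Cbfa2t3 tile. The tile at chr13:56215001-56216000, 21.4 kb into Macroh2a1, a histone variant, had 56.8%, 35.1% and 47.6% in transplanted and 70.7% and 54.7% in fetal libraries, against 10.2% to 27.8% in the adult libraries. The others were chr11:117207001-117208000, 79.9 kb from the start of Septin9, and chr14:64632001-64633000 with no placed promoter near it. None of these 5 tiles passed the test against fetal, where the adjusted p lay between 0.0632 and 0.122 in the quasi-binomial fit. They were chosen for lying closer to fetal than to adult, so that test cannot show that they reached the fetal level.

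In the first set, the tiles furthest toward fetal had less methylation than every adult library. Of the 6 furthest, the 3 with a placed promoter within 50 kb are given. At chr4:135766001-135767000, 4.2 kb into Asap3, a GTPase-activating protein, levels were 50.7%, 46.6% and 62.3% in transplanted and 63.3% and 59.7% in fetal libraries, against 78.6% to 88.1% in the adult libraries. At chr5:115041001-115042000, 23.2 kb from the start of Fam222a, they were 11.4%, 15.1% and 27.9% in transplanted and 26.1% and 22.4% in fetal libraries, against 46.7% to 71.4% in the adult libraries. At chr3:85797001-85798000, 22.5 kb from the start of Sh3d19, an adaptor protein, they were 45.8%, 35.6% and 37.0% in transplanted and 38.3% and 37.2% in fetal libraries, against 58.8% to 77.5% in the adult libraries. Transplanted and fetal libraries overlapped at all 3 tiles, and every adult library lay above both groups. Libraries of 10 old cells had 60.1% and 62.3% at the Asap3 tile, 21.4% and 21.5% at the Fam222a tile and 33.3% and 45.0% at the Sh3d19 tile.

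Among deeply read tiles (5 or more CpGs, 100 or more reads per library) where transplanted and both young libraries did not overlap, the largest movements toward fetal and away from it are given. They were picked by the size of the movement and are a description. The largest movement toward fetal was 3.6 kb into Cbfa2t3 (chr8:125198001-125199000), with 84.6%, 67.6% and 79.5% in transplanted and 63.0% and 67.5% in fetal libraries. There the young libraries had 23.0% and 19.6%, both old libraries 19.7% and 13.7%, and the 0-dose libraries 29%, 55.1% and 60.9%. The transplanted cells were thus at or above the fetal level, and 2 of 3 0-dose libraries were near it too.

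Further tiles where transplanted cells were at the fetal level or past it were chr9:121591001-121592000, 36.8 kb upstream of Nktr, a cyclophilin-related protein, and chr5:139832001-139833000, 24.1 kb upstream of Gpr146, a receptor. The Nktr tile had 42.2%, 47.0% and 43.3% in transplanted and 40.5% and 30.8% in fetal libraries, against 12.8% and 11.1% in young, 37.7% and 25.8% in old and 14.1%, 22.3% and 9.64% in 0-dose libraries. The Gpr146 tile had 53.7%, 50.0% and 66.1% in transplanted and 42.6% and 36.6% in fetal libraries, against 20.2% and 23.7% in young, 41.8% and 29.2% in old and 40%, 52.3% and 28.5% in 0-dose libraries. One 0-dose library thus lay within the transplanted range at the Gpr146 tile. At both, every transplanted library stood above both young and both fetal libraries. A tile at chr14:48015001-48016000, 97.6 kb from the start of Mapk1ip1l, had 71.9%, 49.8% and 59.4% in transplanted and 50.3% and 43.5% in fetal libraries, against 24.5% and 25.6% in young.

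Among tiles higher in young, the largest movement toward fetal was at chr16:87671001-87672000, 27.7 kb upstream of Bach1, a repressor that responds to haem. It had 39.3%, 39.7% and 27.7% in transplanted and 48.9% and 69.4% in fetal libraries, against 73.9% and 73.7% in young. The transplanted libraries were below both fetal libraries there. At chr3:122213001-122214000 levels were 61.5%, 65.5% and 57.6% in transplanted and 62.1% and 72.6% in fetal libraries, against 82.2% and 95.8% in young. At chr5:52432001-52433000 they were 39.7%, 59.5% and 40.3% in transplanted and 53.4% and 77.0% in fetal libraries, against 74.3% and 80.7% in young.

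In the set lower in young, the largest difference of transplanted cells from young replicate 2 was 57.6 points toward fetal (the Cbfa2t3 tile) and -47.3 points away. In the set higher in young it was -38.1 points toward fetal and 50.1 points away. Among tiles higher in young, transplanted cells were higher still at neighbouring tiles at chr5:118886001-118888000. The second had 74.3%, 77.2% and 88.1% in transplanted and 7.45% and 9.91% in fetal libraries, against 32.9% and 29.8% in young. The first had 72.0%, 72.9% and 65.4% in transplanted, 10.1% and 10.3% in fetal and 34.2% and 28.7% in young. A tile at chr17:86200001-86201000 was higher too (54.0%, 52.1% and 58.6% in transplanted, 3.82% and 5.05% in fetal, 26.1% and 23.5% in young). The largest drops lay at tiles of intermediate level in young. At chr16:28596001-28597000, 31.5 kb upstream of Fgf12, a growth factor homologue that stays in the cell, the level was 12%, 16.6% and 10.7% in transplanted and 87.2% and 89.3% in fetal libraries, against 51.6% and 60.4% in young. Old libraries were at 9.76% and 9.91% at that tile. At chr5:113643001-113644000, 6.8 kb into 2900026A02Rik, it was 5.45%, 9.52% and 5.46% in transplanted and 76.6% and 84.6% in fetal libraries, against 42.1% and 46.6% in young. Tiles upstream of Gas5 and Snhg12, host genes of small nucleolar RNAs, were lower as well. At 2.2 kb upstream of Gas5 (chr1:162962001-162963000) the level was 20.8%, 47.3% and 28.2% in transplanted and 86.8% and 91.3% in fetal libraries, against 54.9% and 61.9% in young. At 3.1 kb upstream of Snhg12 (chr4:131861001-131862000) it was 20.8%, 27.4% and 33.1% in transplanted and 65.7% and 70.8% in fetal libraries, against 45.1% and 56.4% in young.

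Tiles with the largest changes of young against fetal were also read in the transplanted libraries. In a fit of fetal, young and old libraries 5653 of 100896 tiles changed between young and fetal (5.6%). Besides the pair in Runx1, the largest gains included chr1:173123001-173124000, with 61.9%, 66.0% and 63.1% in transplanted and 11.1% and 11.3% in fetal libraries, against 77.7% and 81.2% in young. They also included chr8:11279001-11280000, 33.3 kb upstream of Col4a2, a basement membrane collagen, with 59.6%, 44.5% and 47.4% in transplanted and 17.2% and 14% in fetal libraries, against 78.8% and 81.6% in young. The 0-dose libraries had 34.5% to 45.8% at the Col4a2 tile. At both tiles the transplanted libraries lay between fetal and young. At chr15:31227001-31228000, read least of all, they had 65.8%, 23.1% and 73.5%, and fetal libraries 10.2% and 3.15%.

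At the largest losses of young against fetal, transplanted cells stayed far below the fetal level. At chr8:122906001-122907000 it was 19.1%, 6.25% and 1.23% in transplanted and 90.9% and 88.2% in fetal libraries, against 2.18% and 2.83% in young. At chr8:123168001-123169000 it was 12.2%, 10.9% and 20.4% in transplanted and 95.2% and 85.9% in fetal libraries, against 4.53% and 6.03% in young. At chr8:122794001-122795000 it was 13.9%, 26.5% and 17.3% in transplanted and 85.5% and 93.3% in fetal libraries, against 8.09% and 9.08% in young. At chr5:145013001-145014000, 2.6 kb upstream of Bri3, it was 3.45%, 3.85% and 14.1% in transplanted and 86.4% and 91.9% in fetal libraries. The 4 tiles differed from fetal in the same direction in every transplanted library.

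Promoters changed far less often than tiles, and mostly upward. Of 8147 promoter windows tested (the 300 bases of each RefSeq promoter that could be placed), 46 changed (0.565%): 35 gained (0.43%, 33 genes) and 11 lost (0.135%, 10 genes). Of all windows, 95.6% were under 10% methylated in all 5 libraries, and 3.41% had an unadjusted p under 0.05. No changed window had overlapping libraries between groups, which the call itself favours, and the share over all windows is not given. At 27 of the 35 gained windows all 3 transplanted libraries lay above both young libraries, and at 7 they lay above all 7 untransplanted adult libraries. Over all windows those shares were 3.83% and 0.479%. At 3 of the 11 lost windows they lay below both young libraries, and at 1 below all 7 adult libraries. The share over all windows was not counted for lying below. The changed windows were chosen for high or low transplanted levels, which favours such counts. The balance of gains and losses was not stable: with a library offset removed 10 gained and 20 lost. That offset was read from 26 CpG-rich tiles at 20 to 80% in all 5 libraries, where means were 51%, 48.7% and 47.2% in transplanted and 38% and 38.1% in fetal libraries. The count was 0 without fetal replicate 1 (1.30% of windows at an unadjusted p under 0.05), 14 without fetal replicate 2, and 16, 30 and 20 without transplanted replicates 1, 2 and 3.

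The promoter with the largest gain was that of Alpk3. It had 72.8%, 75.7% and 80% in transplanted and 14.8% and 5.95% in fetal libraries over 5 CpGs, with 52.4% to 76.4% in the untransplanted adult libraries (adjusted p = 3.22e-07, quasi-binomial fit). All 5 CpGs lie after the start, and no CpG of the window before it had enough reads. Nrsn2 had 56.5%, 58.3% and 51.4% in transplanted and 4.59% and 3.77% in fetal libraries over 9 CpGs, and the adult libraries reached 41.6% at most. The transplanted libraries were therefore above every fetal and untransplanted adult library at Nrsn2. Both libraries of 10 old cells transplanted, at 51.9% and 53.9%, lay within the transplanted range there. Gains of 48.0, 43.2 and 42.8 points were found at Gm32708, Fbxo27 and Tmem59l. Lypd3, a surface protein of epithelia, had 72.4%, 55.2% and 57.8% in transplanted and 14.9% and 13.6% in fetal libraries, with 31.9% to 52.9% in the adult libraries. Tbx1, a T-box transcription factor of the pharyngeal arches, had 43.9%, 48.7% and 53.6% in transplanted and 3.45% and 9.46% in fetal libraries, with 20.7% to 64.2% in the adult libraries. Palm3, a membrane-bound paralemmin, had 39.2%, 47.8% and 62.4% in transplanted and 11.5% and 6.38% in fetal libraries.

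Smaller gains included 2 transcription factors and a nuclear receptor. Neurod2, a neuronal transcription factor, had 35.6%, 19.4% and 27.4% in transplanted and 4.53% and 2.90% in fetal libraries. Pparg, the nuclear receptor of fat cells, had 29.7%, 21.0% and 17.4% in transplanted and 5.71% and 4.35% in fetal libraries. Tfap2a, a factor of neural crest and skin, had 17.6%, 31.3% and 19.8% in transplanted and 5.34% and 4.76% in fetal libraries, and the young libraries had 25.0% and 23.0%. Prom1, the surface protein CD133 of several stem cell types, had 35.4%, 23.5% and 30.7% in transplanted and 9.39% and 7.77% in fetal libraries. Rasef, a Rab-family GTPase, was low in both groups, with 10.8%, 12.5% and 13.0% in transplanted and 1.36% and 0.452% in fetal libraries, and the adult libraries reached 8.47%. These genes were picked for what is known of them, among the changed windows.

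The promoter with the largest loss was that of Vwa7, with 21.3%, 27.4% and 26.5% in transplanted and 81.8% and 80% in fetal libraries over 3 CpGs. The young libraries had 9.79% and 12.5% there, below every transplanted library. The 7 untransplanted adult libraries had 9.16% to 25.6%, so the transplanted libraries lay within that range or just above it. Ldhd, a lactate dehydrogenase, had 20%, 12.7% and 26.9% in transplanted and 57.0% and 55.0% in fetal libraries, with 20.6% to 51.1% in the adult libraries. Thrap3, a factor of RNA processing, had 19.7%, 11.6% and 6.69% in transplanted and 44.7% and 30.7% in fetal libraries. The adult libraries did not share one level at Thrap3, with 12.2% and 17.6% in young, 2.72% and 3.02% in old and 67.3%, 67.1% and 62.5% in 0-dose libraries. Il12a, a subunit of interleukin 12, had 3.47%, 5.13% and 6.76% in transplanted and 37.8% and 15.5% in fetal libraries, with 0% to 15.9% in the adult libraries. The windows of Parg, which removes poly(ADP-ribose), and Timm23, a mitochondrial import protein, were both lower in transplanted cells. Their starts are neighbours on chromosome 14. In the Parg window at chr14:33014907-33015206 means were 8.40% in transplanted and 28.5% in fetal libraries, with 26.5% to 31.6% in the 0-dose libraries. In the Timm23 window they were 2.81% in transplanted and 17.6% in fetal libraries, with 12.5% to 28.7% in the 0-dose libraries.

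**Figure D4:**
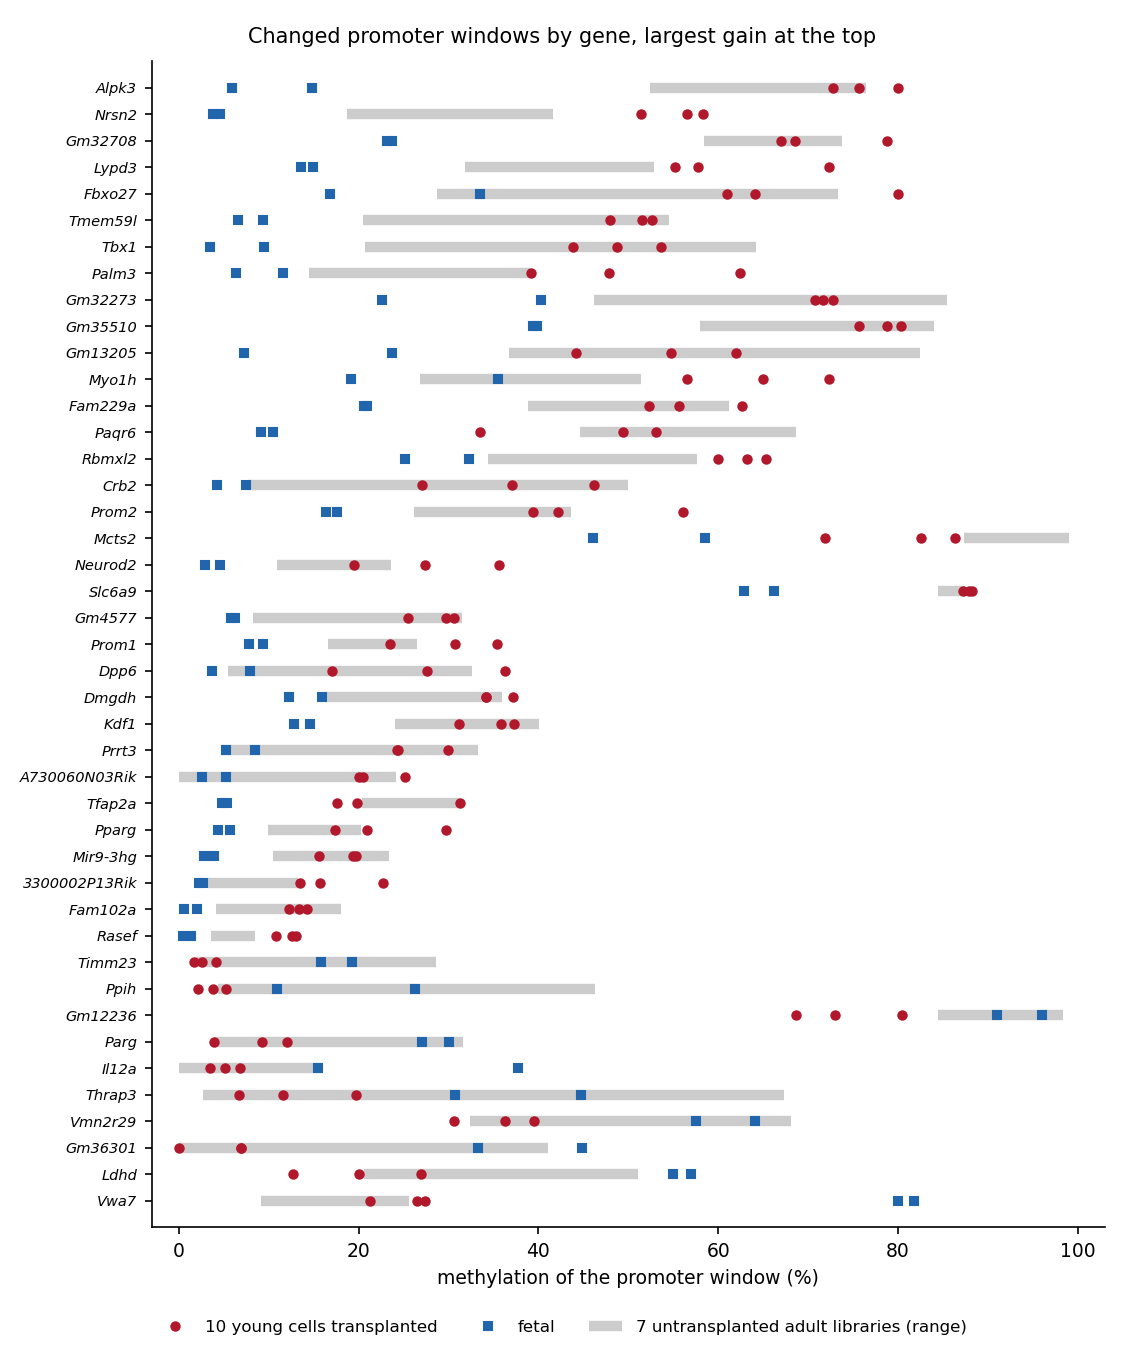
Methylation (x axis, %) of the changed promoter windows, 1 row per gene with the largest gain at the top; circles are the 3 transplanted libraries, squares the 2 fetal libraries and grey bars the range of 7 untransplanted adult libraries. Circles lie right of the squares for the gains, and for Nrsn2 they lie right of the grey bar as well.

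Tiles within 5 kb of listed blood genes changed at few of them. All tiles within 5 kb of a placed promoter numbered 15596, of which 206 gained and 431 lost (4.08% changed). Of 15 stem cell factors 7 had a placed promoter, with 36 tiles, of which 5 gained and 0 lost (13.9%), with 8 at an unadjusted p under 0.05 and 5 called by limma on logits. The gains were 2 tiles at Runx1, 2 at Gata2 and 1 at Gfi1, all transcription factors that HSCs need. Tiles at Tal1, Meis1, Hlf and Cbfa2t3 within that distance did not pass the test. At Gata2 the tile chr6:88140001-88141000, 3.4 kb upstream, had 55.9%, 66.2% and 56.4% in transplanted and 22.9% and 22.8% in fetal libraries (adjusted p = 0.00294, quasi-binomial fit), and 51.7% and 54.1% in young. At Gfi1 the tile chr5:108150001-108151000, 2.9 kb into the gene, had 36.0%, 27.7% and 19.4% in transplanted and 5.00% and 11.6% in fetal libraries (adjusted p = 0.0206, quasi-binomial fit), and 22.5% and 15.4% in young. At all 3 genes the transplanted levels lay on the side of the adult libraries.

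The promoter windows of these genes were free of methylation in both groups: means were 0% in transplanted and 0.483% in fetal libraries for Runx1, 0.538% in transplanted and 0.430% in fetal for Gata2, and 0.599% in transplanted and 0% in fetal for Gfi1. At the other lists 0 tiles passed, in the quasi-binomial fit or in limma on logits. These were 9 tiles of the fetal programme (at Igf2bp2, Igf2bp3 and Plagl1, 3 of 15 genes listed) and 4 myeloid tiles (at Irf8, 1 of 7). The rest were 14 lymphoid tiles (at Pax5, Ikzf1, Satb1 and Tcf7, 4 of 10) and 15 tiles of the methylation machinery (at Dnmt1, Dnmt3a, Dnmt3b, Tet1, Tet2, Tet3 and Uhrf1, 7 of 7). An unadjusted p under 0.05 was reached at 1, 1, 3 and 0 of these tiles, in that order of lists, and at 1765 of the 15596. Listed genes without a placed promoter were not read. Beside the 4.08% called among the 15596, 0 calls in so few tiles cannot set these lists apart. No erythroid or platelet gene of the list had a placed promoter. The fetal regulators Igf2bp2 and Igf2bp3, which bind RNA, were low in both groups, with 2.33% and 3.57% in transplanted and 0.471% and 0.242% in fetal libraries at their most different tile. Plagl1, an imprinted zinc finger gene, had 41.1% in transplanted and 36.1% in fetal libraries.

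Single CpGs were read by their distance from a placed start in Runx1 and Cbfa2t3. In Runx1 the 14 CpGs of the promoter window averaged 0% in transplanted and 0.371% in fetal libraries, and 35 CpGs from there to 2000 bp upstream averaged 1.23% in transplanted and 0.888% in fetal libraries. The 22 CpGs from 51 to 2000 bp downstream of that start averaged 47.2% in transplanted and 1.49% in fetal libraries, against 46.4% in young. Beyond that, to 5000 bp, 3 CpGs averaged 77.2% in transplanted and 43.2% in fetal libraries, against 90.6% in young. Cbfa2t3 has 2 placed starts, and the one with more CpGs matched was used (window chr8:125202026-125202325). Its 8 window CpGs averaged 0.548% in transplanted and 1.96% in fetal libraries, and the 20 CpGs from 51 to 2000 bp into the gene 21.7% in transplanted and 23.7% in fetal libraries, against 11.5% in young. Its 9 CpGs from there to 5000 bp averaged 77.8% in transplanted and 75.3% in fetal libraries, against 29.7% in young. Single CpGs of Cbfa2t3 went both ways: transplanted means lay above fetal ones at some and below them at others.

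**Figure D5:**
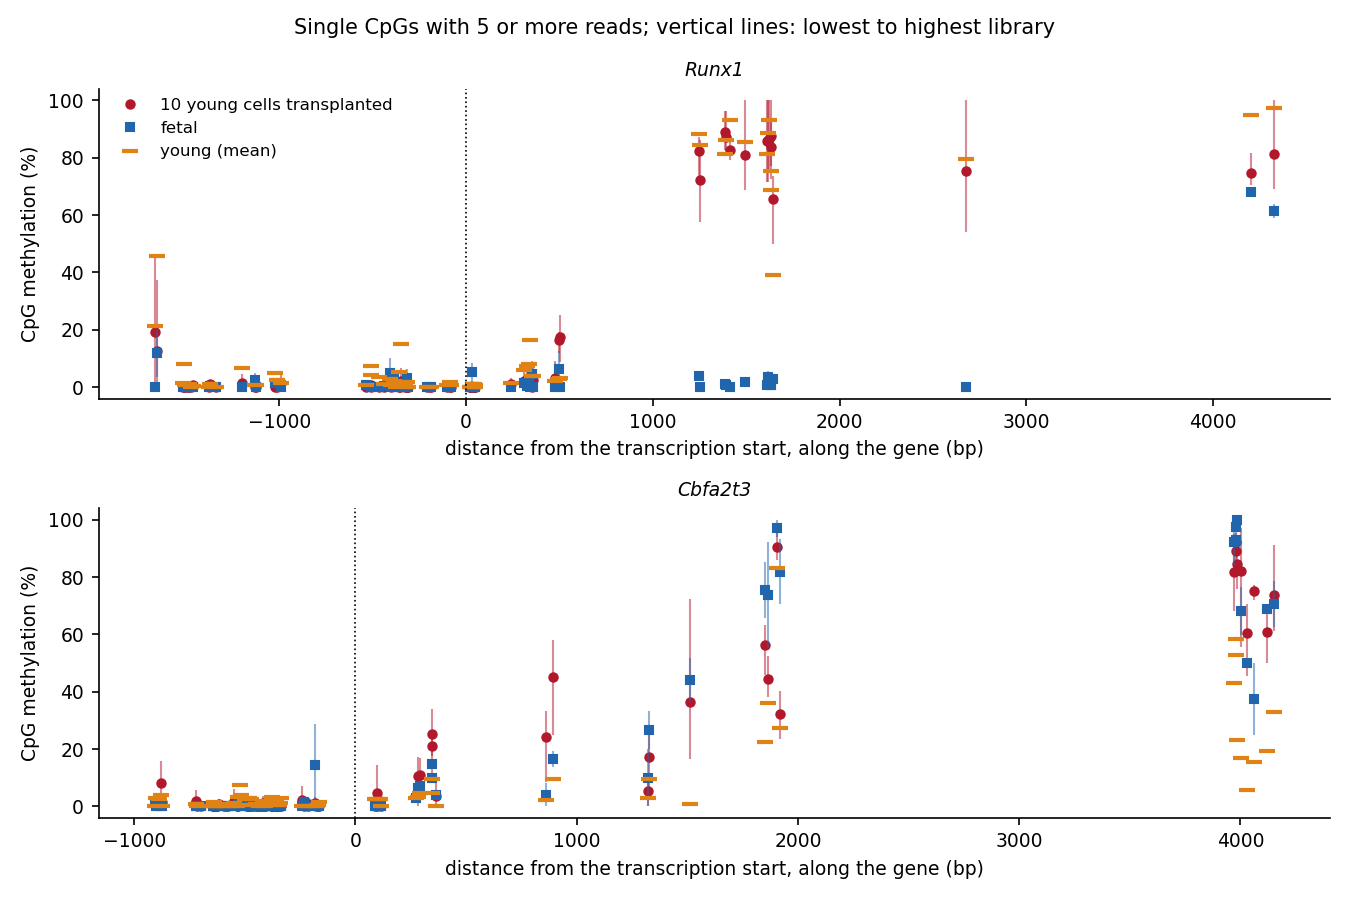
Methylation of single CpGs (y axis, %) by distance from the start along the gene (x axis, bp) at Runx1 (top) and Cbfa2t3 (bottom); circles are transplanted means, squares fetal means, vertical lines the lowest to highest library and dashes the young mean. In Runx1 the circles and squares part beyond 1000 bp downstream of the placed start, and in Cbfa2t3 both lie above the young dashes at the far right.

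The spread within the transplanted libraries was set beside that within the 0-dose libraries. Over 62572 tiles with 50 or more reads in each library, the median SD was 2.57 points in the transplanted and 2.45 points in the 0-dose group (n = 3 each). At 128 tiles (0.205%) the transplanted libraries spanned 40 points or more, against 74 tiles (0.118%) for the 0-dose libraries. Depth differed between these groups, at a median of 21 to 23 reads per CpG in transplanted and 10 to 13 in 0-dose libraries, and its part in the spread was not tested.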

How the data were processed

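Reduced representation bisulfite sequencing reads methylation at CpGs of restriction fragments, where bisulfite turns unmethylated cytosines into thymine. Each deposited file lists CpGs with methylated over total reads and a score that the authors made, and on every file that deposited score equalled the methylated share scaled up and rounded down. The submitters' processing notes name the build mm9. The sources used here give no aligner, caller or handling of duplicates. Reads without molecular identifiers are not independent molecules, so counting errors are lower limits. The reads were used, not the score.

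Tiles of 1000 bp with 3 or more CpGs at 5 or more reads in all 5 libraries were tested with a quasi-binomial model (Williams weights, dispersion held at 1 or more, F test, Benjamini-Hochberg over all tiles), with 3 residual and 10.6 prior degrees of freedom. The dispersion was moderated with limma 3.58.1 in R 4.3.3, with its prior taken from tiles at 5 to 95%. That prior was chosen after a fit with the prior from all tiles had made 0 calls in these data. On simulated reads with 10000 changed of 102944 tiles, 13.2%, 64.4%, 93.9% and 100.0% of differences of 10, 20, 30 and 50 points were recovered, and 3.04% of calls were unchanged tiles. With 200 changed tiles 2.0%, 36.0%, 78.0% and 100.0% were recovered. All simulated tiles shared a common dispersion, and only tiles at 5 to 95% were changed, the range the prior was taken from. These rates therefore cannot decide between the priors. Other steps used Python 3.11.15, numpy 2.4.6, scipy 1.17.1 and pandas 2.3.3. P-values measure the spread between these libraries, which may be technical.

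Tile sets for the scale from young to fetal were chosen by replicate 1 of fetal and young and measured in other libraries, with exact permutation tests over libraries. The members, gene lists and tests were chosen with earlier results of these data known. Tiles named are the 5 largest gains and losses with no overlap between groups, the 4 largest movements toward and away from fetal in each tile set (at least 5 CpGs and 100 reads), and the largest changes of young against fetal. One of these tiles is not reported here. Tiles of the stricter set and promoters were named after their values were seen.

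In place of an mm9 annotation, 9139 of 32851 RefSeq promoter sequences (8109 genes) were placed on the files' own coordinates where at least 8 of their CpGs matched the spacing of listed CpGs and no other place on the chromosome came near. Of 9120 neighbouring pairs, 9120 kept the RefSeq order. Distances are to the nearest placed promoter, and a gene without one may lie nearer. The promoter comparison was added after the data were seen.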

Additional observations from a re-analysis of the deposited data

Results flagged for a closer look

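Among the 6 adult libraries that chose no tile, young replicate 2 stood apart from the rest in the tiles lower in young than in fetal. It averaged 47.6% there, against 57.4% to 60.6% in the other 5, and its gap to the nearest of them was 0.754 of the whole range of the 6 libraries (critical value 0.625). The transplanted libraries, at 40.6% to 45.6%, lay below it as well. In the tiles higher in young and in the tiles alike, no adult library stood apart by that measure. Chance gives such a flag in about 1 of 20 groups of like libraries. That rate does not hold for the tiles lower in young, which were chosen for a low level in the other young library.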

How the results depend on the processing

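With fewer libraries or another model the number of changed tiles moved while losses stayed in the majority wherever calls were made (79.5% to 98.3% of changed tiles). The count was 10347 as fitted, 6216 with 300-bp tiles, 18148 with limma on logits, 3184 in a fit of all 25 libraries and 45343 with the library offset removed. With the prior of the dispersion from all tiles it was 0 (23.1% of tiles had an unadjusted p under 0.05). Leaving out 1 library at a time gave 610 to 16250 changed tiles and 0 to 30 changed promoters. The 610 and 773 came without fetal replicates 1 and 2, and the cause was not tested. For promoters the count of 46 became 22 at 10 reads per CpG and 30 with the offset removed, where losses (20) outnumbered gains (10). Replicate numbers did not pair the samples (correlations of deviations -0.00113 and 0.0072), and with a replicate block in the fit 12248 tiles and 41 promoters changed. The tile sets kept their sign in every alternative. In the set higher in young the difference from adult libraries was -5.47 points against the 0-dose libraries only and -9.48 against young replicate 2 and old only, where 3 against 3 cannot give a p under 0.1, and leaving out 1 transplanted library at a time gave -7.99 to -6.68. In the set lower in young those values were -15.9 and -11.4, and -2.12 in tiles where all 7 adult libraries differ from fetal. The share at the fetal level in the set higher in young was 27.3% with a window of 15 points and 13.0% with tiles chosen by replicate 2. In the set lower in young it was 11.9% with the wider window. The median shift at alike tiles of 80% or more was -6.57 points with tiles chosen by replicate 2. The 11 tiles followed one by one kept their direction in every alternative that measured them. The 10 of them called as fitted kept their call except with the prior from all tiles, where none was called. On simulated reads a difference of 10 points was recovered at 13.2% of tiles with 10000 changed tiles and at 2.0% with 200.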

Other observations

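Chromosome X, which the report leaves out because the labels give no sex, had a median difference in the direction of the autosomes. Over 4610 tiles the median difference of transplanted from fetal libraries was -7.01 points, and mean levels were 69.2%, 71.4% and 69.2% in the transplanted and 74.7% and 74.7% in the fetal libraries. Its calls held more gains than those of the autosomes. With X in the fit 1766 tiles gained and 10138 lost of 107554, against 1154 and 9193 of 102944 without it. Losses were 85.2% of changed tiles with X and 88.8% without.

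Mcts2, an imprinted retrogene, was among the gained promoters, with 82.5%, 86.4% and 71.8% in transplanted and 46.1% and 58.6% in fetal libraries, while the 7 untransplanted adult libraries lay at 87.3% to 99.0%. Slc6a9, the glycine transporter, had 88.2%, 87.3% and 87.9% in transplanted and 66.2% and 62.8% in fetal libraries, with both young libraries at 87.3% and 84.4%. At Gm12236 the transplanted libraries (80.4%, 73.0% and 68.7%) lay below both fetal libraries (91.0% and 96.0%) and below all 7 untransplanted adult libraries, the lowest of which had 84.5%.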
